A study of Mus musculus with 10 samples.

Results

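The 4 genes described here, Gpr17, Tcf7l2, Bcas1 and Gatm, are expressed as oligodendrocyte precursors turn into myelin-forming cells. They were chosen by name, with their Old and Young values in these arrays already known. Each is represented by 1 probe set on the array, so the rule of keeping the probe set with the highest mean left 4 of the 19505 genes measured. Their probe sets are TC1800001119.mm.2 (Gpr17), TC1900000787.mm.2 (Tcf7l2), TC0200005249.mm.2 (Bcas1) and TC0200004511.mm.2 (Gatm). Hypothalamic RNA of male mice of the inbred strain C57BL/6J was hybridised to Clariom S Mouse arrays, which read 1 colour. The Young group held 5 samples from mice aged 24 weeks and the Old group 5 samples from mice aged 138 weeks. All were untreated as far as the labels say, fed freely and kept under a light-dark cycle. The labels do not say whether each sample came from 1 animal, so the spread between samples may in part be technical.

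Oligodendrocytes arise from precursor cells that stay in the adult brain. A precursor that commits to differentiation passes through a short premyelinating stage, and then either forms myelin sheaths or is lost. GPR17 is an orphan G protein-coupled receptor of that premyelinating stage, which is switched off as the cell matures and restrains the last step of differentiation. TCF7L2 is a transcription factor that partners beta-catenin in Wnt signalling and is present for a short time in newly forming oligodendrocytes; it is also made in large amounts by neurons of the thalamus. BCAS1 marks early myelinating oligodendrocytes and is a component of myelin itself. GATM is the mitochondrial amidinotransferase that carries out the first step of creatine synthesis, from arginine and glycine, and is found in oligodendrocytes and other glia.

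Promoter windows of 2 of the 4 members, Gatm and Tcf7l2, are shown as the 250 bases before the start. They are from the RefSeq table of build GRCm38.p6, and no window is shown for Gpr17 or Bcas1. Capitals mark the letters ACAATG or ACAAAG, cores recognised by SOX factors, read on either strand; the letters ATCAAAG, a TCF/LEF core, were searched on both strands too. The first line is chr2:122611278-122611527 on the minus strand and the second is chr19:55741560-55741809 on the plus strand, each 5′ to 3′.
Gatm: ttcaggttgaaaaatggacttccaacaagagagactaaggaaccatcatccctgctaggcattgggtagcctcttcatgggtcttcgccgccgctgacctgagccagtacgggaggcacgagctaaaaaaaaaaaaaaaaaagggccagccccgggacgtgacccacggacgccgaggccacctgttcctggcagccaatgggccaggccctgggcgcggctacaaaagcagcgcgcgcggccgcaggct
Tcf7l2: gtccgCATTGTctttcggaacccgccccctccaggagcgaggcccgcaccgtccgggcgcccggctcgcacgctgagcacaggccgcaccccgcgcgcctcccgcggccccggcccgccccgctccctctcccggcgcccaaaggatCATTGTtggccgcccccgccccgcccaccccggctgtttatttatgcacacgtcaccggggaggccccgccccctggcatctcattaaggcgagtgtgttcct
The Tcf7l2 window held the reverse complement of ACAATG at 2 places and no TCF/LEF core, and the Gatm window held none of the 3 motifs. Among 32851 promoter windows of 250 bases, 10.7% held ACAATG, 16.5% held ACAAAG and 3.21% held ATCAAAG. The window of a second Tcf7l2 start site, at chr19:55895071-55895320 on the plus strand, held the reverse complement of ACAAAG once. These matches are descriptions of letters, and the probe set is not tied to either start.

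The deposited values were read as log2 signal. For 19118 genes (98% of those measured) the population standard deviation (SD) over the 10 arrays was 1e-05 log2, within 1%; such genes are called collapsed, and their values give a level but cannot show a change with age. The 276 genes whose SD reached 0.01 log2 or more are called varying; the other 111 fell in the gap. All 4 members were varying. How far their differences were also shrunk is unknown, so each fold describes the deposited values. The array carries probe sets for all 16 listed hypothalamic marker genes, which does not show that they were expressed. Their mean levels ran from 6.23 to 10.56 log2, and Pmch, which encodes melanin-concentrating hormone, had 10.36 on average. No background or detection call was used. In these bulk samples, fewer cells of a type and less RNA per cell cannot be told apart.

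Several arrays stood apart for genes of other tissues. In Young 5 the mean of the 7 varying choroid plexus genes was 8.55 log2, against at most 6.76 in the other Young arrays and 6.72 in Old. In Young 3 the mean of the 2 varying liver genes, Alb and Mup2, was 7.11 log2, where the Old arrays had at most 6.15. The mean of the 4 varying striatal genes (Drd1, Drd2, Ppp1r1b and Penk, of 10 measured) was 8.19 in Young 1, 8.29 in Young 2 and 8.28 in Old 3, and 7.76 to 8.02 in the other 7 arrays. Member values without these arrays are given below.

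Gpr17, the receptor of the premyelinating stage, was lower in Old. The 5 Young arrays had 7.24, 7.19, 7.24, 7.28 and 7.21 log2 (Young 1 to Young 5), and the 5 Old arrays had 6.90, 7.02, 7.02, 7.12 and 7.09 (Old 1 to Old 5). Every Old value lay below every Young value, with 0.071 log2 between the lowest Young array (Young 2) and the highest Old array (Old 4). Old 1 was the lowest of all. The group means were 7.23 ± 0.037 in Young and 7.03 ± 0.083 in Old (SD, n = 5), a difference of -0.20 log2 (limma's standard error, SE, 0.038), or 0.868-fold. The Old arrays spread over 0.21 log2, the Young arrays over 0.098. Leaving out Old 1 gave -0.17 (SE 0.027), the smallest difference when any single array was left out.

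Bcas1, the gene of early myelinating cells, was higher in Old. The Young arrays had 9.52, 9.57, 9.40, 9.46 and 9.33 log2, and the Old arrays 9.94, 9.87, 9.98, 9.998 and 9.83, in order of replicate. The groups did not overlap, and 0.26 log2 separated the highest Young array (Young 2) from the lowest Old array (Old 5). The means were 9.45 ± 0.094 and 9.93 ± 0.072 (SD, n = 5), a difference of 0.47 log2 (SE 0.05), or 1.39-fold. Of the 4 members Bcas1 had the largest difference.

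Gatm, the creatine-synthesis enzyme, was also higher in Old. The Young arrays had 8.68, 8.71, 8.74, 8.51 and 8.62 log2, and the Old arrays 9.12, 9.03, 9.06, 9.06 and 9.06. The groups did not overlap, and 0.29 log2 lay between Young 3 and Old 2, the nearest arrays of the groups. The Old arrays spanned 0.095 log2 and the Young arrays 0.23, with Young 4 the lowest. The means were 8.65 ± 0.09 and 9.07 ± 0.035 (SD, n = 5), a difference of 0.41 log2 (SE 0.041), or 1.33-fold. Without Young 4 the difference was 0.38 (SE 0.026).

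Tcf7l2, the Wnt-pathway transcription factor, differed more between arrays of 1 age than between the ages. The Young arrays had 9.77, 9.59, 9.64, 9.36 and 9.09 log2, and the Old arrays 9.31, 9.30, 9.57, 9.36 and 8.99. The groups overlapped over most of their range. Young 1 was the highest and Old 5 the lowest, and each group had replicate 5 as its lowest array. The means were 9.49 ± 0.27 and 9.31 ± 0.21 (SD, n = 5), a difference of -0.18 log2 (SE 0.14), or 0.881-fold. Leaving out 1 array moved that difference between -0.10 (without Old 5) and -0.28 (without Young 5), and without Young 1 it was -0.11.

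**Figure D1:**
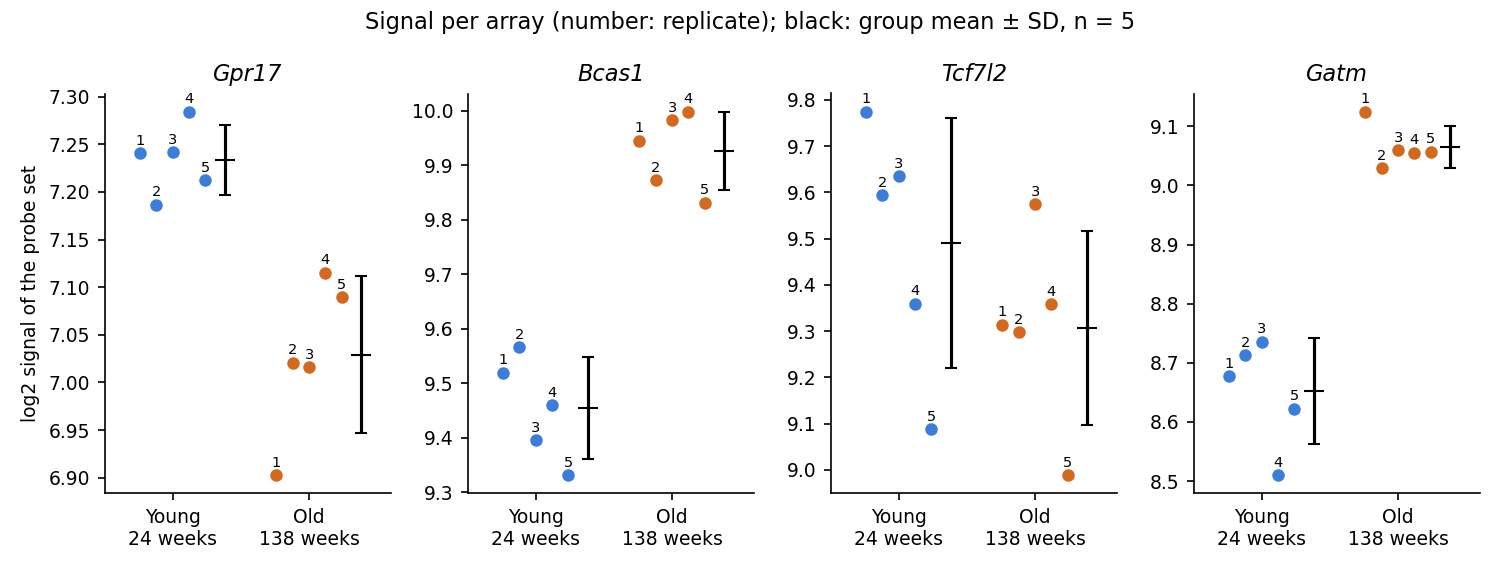
Log2 signal (vertical axis, own scale in each panel) of Gpr17, Bcas1, Tcf7l2 and Gatm in the 5 Young (blue) and 5 Old (orange) arrays, each point numbered by replicate; the black bar is the group mean ± SD (n = 5). The groups separate for Gpr17 (lower in Old), Bcas1 and Gatm (higher in Old) and overlap for Tcf7l2.

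The groups thus did not overlap for 3 of the 4 members, 1 lower and 2 higher in Old. Over all genes 1.37% had groups that did not overlap, and among the 276 varying genes 27.9% did (20.7% higher and 7.25% lower in Old). The members were chosen with this contrast known, so the count describes them, and no p is given for their differences. Without Young 3 and Young 5 the differences were -0.21 (SE 0.049) for Gpr17, 0.41 (SE 0.045) for Bcas1, 0.43 (SE 0.046) for Gatm and -0.27 (SE 0.14) for Tcf7l2. Without the 3 arrays of high striatal signal they were -0.21 (SE 0.059), 0.52 (SE 0.054), 0.44 (SE 0.06) and -0.12 (SE 0.17), in the same order. That last comparison was added after the values were seen, and its SE is the ordinary one, not limma's.

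Bcas1 and Gpr17 were also set against each other within each array. Bcas1 was higher and Gpr17 lower in every Old array, so the separation of their ratio follows from these values. The log2 ratio of Bcas1 to Gpr17, counted from its Young mean, ran from -0.10 (Young 5) to 0.16 (Young 2) in Young. In Old it was 0.82, 0.63, 0.74, 0.66 and 0.52 (Old 1 to Old 5), a mean of 0.68 ± 0.11 (SD, n = 5) or 1.6-fold. The ratio restates the differences of Bcas1 and Gpr17 array by array and is no further support for them. Old 1, with the largest ratio, had the lowest Gpr17 signal of the Old arrays, while Old 5 combined the lowest Bcas1 of its group with the second-highest Gpr17.

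The ratio of Gatm to Bcas1 changed little. It was -0.06 ± 0.071 log2 from the Young mean in Old, against a Young SD of 0.12 (n = 5), and the Old arrays ran from -0.14 to 0.03, inside the Young range of -0.15 to 0.14. Within Young, however, the pair did not keep step. Young 4 had the lowest Gatm but the third-highest Bcas1 of its group, and Young 3 had the highest Gatm but the fourth-highest Bcas1.

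**Figure D2:**
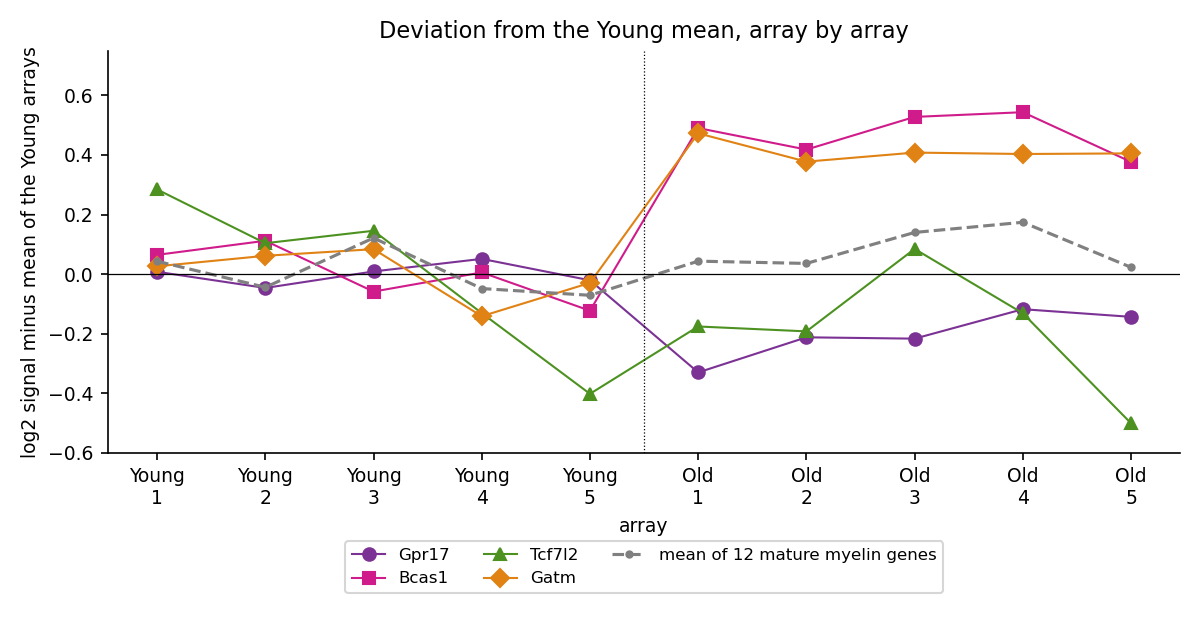
Log2 signal minus the mean of the 5 Young arrays (vertical axis) for the 4 members and for the mean of the 12 varying mature myelin genes (dashed), in each of the 10 arrays (horizontal axis; lines only guide the eye). Bcas1 and Gatm lie between 0.38 and 0.54 in every Old array, Gpr17 lies below 0 in every Old array, and Tcf7l2 is spread widely in both groups.

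Mature myelin genes were set beside the members in each array. The mean of the 12 varying myelin genes ran from 9.47 to 9.66 log2 in Young and from 9.56 to 9.71 in Old, so the groups overlapped. Of the 12 genes 8 were higher and 4 lower in Old, and Apod had the largest difference (0.58 log2). Their mean was then subtracted in each array, a comparison added after the values were seen. This moves the difference of every gene by the same amount, so the shift is not particular to any member. Gpr17 was then at -0.29 log2 (SE 0.052), Bcas1 at 0.39 (SE 0.058) and Gatm at 0.33 (SE 0.05). For these 3 genes the groups still did not overlap. Tcf7l2 was at -0.27 (SE 0.125) and its groups still overlapped. The SE of these 4 values is the ordinary one.

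The other genes of the oligodendrocyte lineage were tested with limma, Old against Young over all 19505 genes, with Benjamini-Hochberg adjustment at 0.05. Of the 87 measured lineage genes other than the members, 1 rose and 0 fell; over all genes 0.19% rose and 0.0308% fell. Only 13 of the 87 were varying. A second fit, restricted to the 276 varying genes, called 3 lineage genes as higher and 2 as lower, where 35.9% of varying genes were called (24.6% higher and 11.2% lower). The lists were written with earlier results of these data known.

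Precursor genes and regulators could not be followed. Of 15 measured genes of oligodendrocyte precursors 0 varied, and of 24 measured regulators of differentiation 0 varied. Cspg4, the NG2 proteoglycan of precursors, stood at 7.05 log2, Sox10 and Olig2, the lineage transcription factors, at 7.65 and 8.57, and Myrf, the transcription factor that drives myelin genes, at 8.73. All 4 were collapsed. These values give no information on whether precursors or their regulators changed with age.

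Genes of the stage between precursor and myelin, that of Gpr17 itself, were as uninformative. Of 19 measured genes of committed and newly formed oligodendrocytes 1 varied, Chn2, which encodes a Rac GTPase-activating protein. Its means were 8.70 ± 0.038 and 8.61 ± 0.079 log2 in Young and Old (SD, n = 5), a difference of -0.10 (SE 0.037; limma adjusted p = 0.671 over all genes, 0.0766 in the restricted fit; range over all alternatives 0.0111 to 0.963). Enpp6, an enzyme of newly formed oligodendrocytes, was collapsed at 6.36 log2, Itpr2, a calcium release channel of the same stage, at 7.49 and Bmp4 at 6.11.

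Of 29 measured mature myelin genes 1 rose and 0 fell, and 12 varied, 8 higher and 4 lower in Old. The median difference over the 12 was 0.09 log2, against -0.02 over all 276 varying genes. Apod, the lipid carrier apolipoprotein D, rose from 10.72 ± 0.098 to 11.30 ± 0.14 log2 (SD, n = 5), by 0.58 (SE 0.071; limma adjusted p = 0.0125, range over all alternatives 0.000148 to 0.0855), with no overlap between the groups. Its call was lost without Young 4 (adjusted p = 0.055), without Old 4 (0.0537), without Young 3 and Young 5 together (0.0855) and with the replicate number as a block (0.0508), with differences of 0.56, 0.58, 0.59 and 0.58. It passed in 16 of 20 settings.

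Other myelin genes differed in both directions. Cldn11, the tight-junction protein of myelin, was lower by -0.24 log2 (SE 0.055) with no overlap between the groups. Fa2h, which hydroxylates myelin lipids, was at -0.21 (SE 0.064). Anln, an actin-binding protein of myelin, was higher by 0.27 (SE 0.094) and Trf, the iron carrier transferrin, by 0.22 (SE 0.074). None of these 4 passed over all genes (limma adjusted p of 0.264, 0.525, 0.65 and 0.609), and all 4 passed in the restricted fit (0.00828, 0.0302, 0.0499 and 0.0397). Over all alternatives the adjusted p of each ranged from under the threshold to at least 0.716. Mbp, the major myelin protein gene, had means of 11.61 ± 0.063 and 11.69 ± 0.036 log2 in Young and Old (SD, n = 5) and did not pass in either fit, and Mog was collapsed at 8.44.

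**Figure D3:**
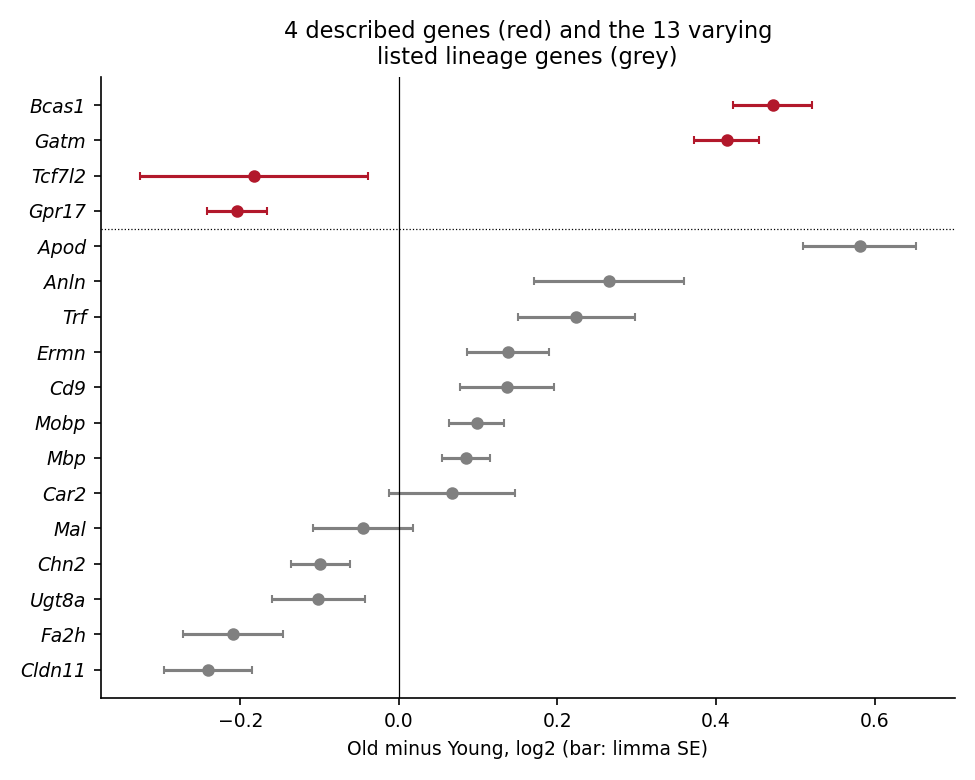
Old minus Young difference in log2 (horizontal axis, bars are limma's SE, 5 arrays a group) for the 4 members (red, above the dotted line) and the 13 varying genes of the lineage lists (grey). Bcas1 (0.47) and Gatm (0.41) lie near Apod (0.58), Gpr17 (-0.20) near Cldn11 (-0.24) and Fa2h (-0.21), and the bar of Tcf7l2 is the widest.

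The partners of the members in their own pathways could not be followed. Of 47 measured 0 varied, where 1.42% of all genes did. Of the 47, 45 were collapsed and 2 fell in the gap, where the size of a change cannot be read. Of 22 measured genes of Wnt and beta-catenin signalling 0 varied and 0 passed in either direction. Lef1, a relative of Tcf7l2, was collapsed at 6.93 log2 and Axin2, a target gene of the pathway, at 7.78. Of 11 measured genes of creatine synthesis, uptake and use, 0 varied and 0 passed. Gamt, which completes creatine synthesis after GATM, was collapsed at 7.35 and Slc6a8, the creatine transporter, at 8.91. Of 14 measured genes for receptors related to GPR17 and for leukotriene synthesis, 0 varied and 0 passed. Over all genes limma made 43 calls (0.22%), 37 higher and 6 lower, and 1331 genes had an unadjusted p under 0.05. That split was 92 and 19273 with median centring and 546 and 7633 with quantile normalization, and 19118 of the first and 8025 of the second set of calls were collapsed genes. A call of none among collapsed genes says nothing about the transcripts.

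Genes closest in pattern were sought among the 276 varying genes, each taken as its deviation from its own mean over the 10 arrays. Likeness was the root mean square (RMS) difference between the profiles in log2, to be read against the member's own SD over the 10 arrays, which is its distance from a flat profile. Since both ages enter, a small RMS difference reflects a like difference between the ages as well as a like order of arrays.

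For Gpr17 (SD 0.12) the closest were Hsph1, a heat shock chaperone (RMS difference 0.046), Rgs4, a regulator of G protein signalling (0.056), and Fads1, a fatty acid desaturase (0.058). Like Gpr17, all 3 had their lowest value in Old 1. Hsph1 and Rgs4 had their highest Old value in Old 4, as Gpr17 did, while Fads1 had its in Old 3.

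For Gatm (SD 0.22) the closest were Fcgr2b, an inhibitory Fc receptor of microglia (0.048), the MHC class I gene H2-D1 (0.075), and Il33, an interleukin made by glia (0.089). Bcas1 was in place 5 for Gatm, at 0.091. Gatm and Fcgr2b shared their lowest Young array, Young 4, and both were nearly level over the Old arrays, where Gatm spanned 0.095 log2 and Fcgr2b ran from 6.70 to 6.78. Within Old they differed in order, since Old 1 was the highest for Gatm and the lowest for Fcgr2b.

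For Bcas1 (SD 0.25) the closest were Pcdhb15, a beta protocadherin of neurons (0.09), Gatm (0.091) and Pcdhb8 (0.094). Gpr17 lay far from both, at RMS differences of 0.35 from Bcas1 and 0.33 from Gatm, since it differed in the opposite direction.

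For Tcf7l2 (SD 0.23) the closest were Drd2, the D2 dopamine receptor gene (0.13), Wfs1, the wolframin gene (0.15), and Gnal, the G protein subunit of striatal dopamine signalling (0.15). The differences of these 3 genes between the ages were -0.02, -0.06 and -0.07 log2, each under its SE. Of the other members Gpr17 was the nearest to Tcf7l2, in place 88 of 275.

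**Figure D4:**
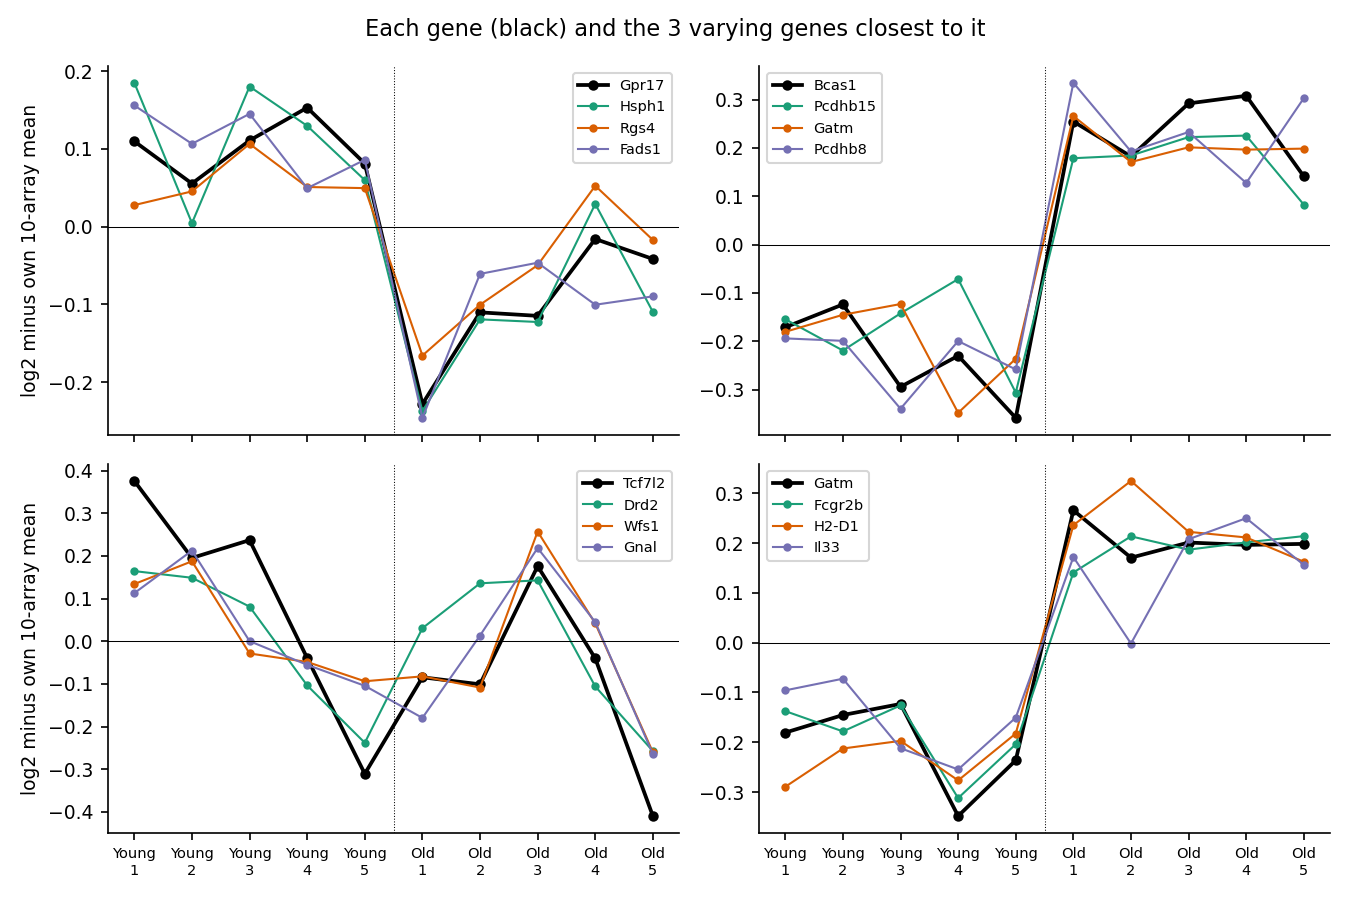
Log2 signal minus each gene's own mean over the 10 arrays (vertical axis) for each member (black) and its 3 closest varying genes (colours), across the 5 Young and 5 Old arrays (horizontal axis; lines only guide the eye). Bcas1, Gatm and their closest genes step between the ages without overlap, as do Gpr17 and Fads1. Hsph1 and Rgs4 are lower in Old on average, but their groups overlap. Tcf7l2 and its closest genes vary from array to array within both ages. Closeness was taken over both ages, so a like step helped to choose these genes.

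Signal of other cells was set beside the members. Tcf7l2 was high where the striatal genes were: Young 1, Young 2 and Old 3 had 9.57 to 9.77 log2 of Tcf7l2, and of the other 7 arrays only Young 3 (9.64) lay in that range, with a striatal mean of 7.87. Old 5 was lowest in both. After subtracting the striatal mean in each array, a comparison added after the values were seen, the difference of Tcf7l2 was -0.13 log2 (SE 0.105). In the same comparison Gpr17 was at -0.15 (SE 0.146) and Gatm at 0.46 (SE 0.124), and the groups of both then overlapped. Bcas1 was at 0.52 (SE 0.094) without overlap. The striatal mean itself had an SD of 0.22 in Young and 0.20 in Old. With it subtracted, the Young SD was 0.24 for Gpr17, against 0.037 before, and 0.19 for Gatm, against 0.09. The overlap came with this added spread, so it cannot tell whether either difference depends on striatal signal. The SE of the values with the striatal mean subtracted is the ordinary one. The part of striatal tissue in the Tcf7l2 values was not tested otherwise. All 14 measured genes of thalamus and habenula neurons were collapsed, so thalamic signal cannot be read from these values.

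**Figure D5:**
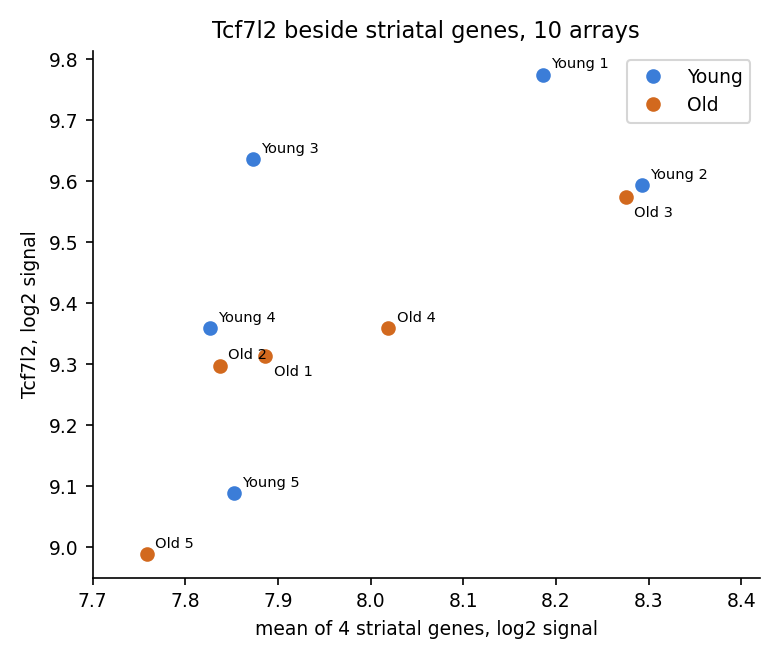
Log2 signal of Tcf7l2 (vertical axis) against the mean of the 4 varying striatal genes (horizontal axis, log2 signal), 1 point per array, Young in blue and Old in orange. Old 5 is lowest on both axes, the 3 arrays with the highest striatal mean have 9.57 to 9.77 of Tcf7l2, and Young 3 has 9.64 at a striatal mean of 7.87.

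Markers of other glia and of endothelium were set beside Bcas1 and Gatm. Of 12 measured microglial markers 2 varied, the complement genes C1qa and C1qb, with a mean of 7.83 to 7.95 log2 in Young and 8.06 to 8.33 in Old. They were higher in Old by 0.34 (SE 0.056) and 0.29 log2 (SE 0.048), with no overlap between the groups. Neither passed over all genes (limma adjusted p = 0.0719 for each), and both passed in the restricted fit (0.00146 and 0.00148). Limma called 2 other markers as higher, C1qc and Trem2, by 0.0059 and 0.0017 log2, with no overlap between the groups. Both lay in the gap between collapsed and varying genes, so the size of a change cannot be read from these values. Of 13 measured astrocyte markers 6 varied, 3 higher and 3 lower in Old, and their mean overlapped, at 10.31 to 10.37 in Young and 10.26 to 10.39 in Old. Over all genes Gfap, the intermediate filament of astrocytes, rose (0.44 log2, SE 0.065, limma adjusted p = 0.0396). Ntsr2, a neurotensin receptor gene, fell (-0.30, SE 0.027, limma adjusted p = 0.00241). The restricted fit also called the astrocyte marker Gja1 as lower (-0.14, limma adjusted p = 0.0353). The 3 varying endothelial markers had a mean of 9.11 to 9.24 in Young and 9.13 to 9.47 in Old. Of 12 measured endothelial markers 0 passed over all genes, and the restricted fit called Abcb1a as higher (0.18, limma adjusted p = 0.0241). The part of these cells in the values of Gatm and Bcas1 was not tested.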

How the data were processed

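The deposited table holds 22206 probe sets on 10 arrays. Per the labels, biotin-labelled cDNA came from hypothalamic RNA. As deposited, the values appear to be log2 signal, judging by their range (5 to 12.97) and near-equal array medians; base, background correction, normalization and summarisation: not given in the sources used here. The platform annotation names 19572 probe sets, and 19505 genes remained after keeping, per gene, the probe set with the highest mean.

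Old was compared with Young with limma 3.58.1 (R 4.3.3; lmFit, eBayes, 2-sided, Benjamini-Hochberg, threshold 0.05) over all genes, and over the 276 varying genes as an alternative. Collapsed genes pull limma's prior to an SD of 7e-06 log2 (1.04 prior degrees of freedom), so its SE is 0.941 of the ordinary SE for the members. Precision is limited by the number of arrays. The procedure was run on simulated data with equal noise in every gene, which is unlike these data. Another run used each gene's own SD within groups. The outcome is not reported here, so it gives no measure of how many true differences were missed.

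Members and lists were chosen with earlier results of these data known. Named genes are the members, from each lineage or pathway list up to 4 varying genes that passed (smallest p first) and up to 4 more by largest difference, 16 fixed genes (some not analysed here) and the 3 closest in pattern to each member. Genes of other cell types were named where their level was set beside a member.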

Additional observations from a re-analysis of the deposited data

Results flagged for a closer look

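In 40 groups of 5 arrays (11 genes and 9 list means, in each age), the lowest or highest array was compared with its nearest neighbour. A gap above 0.71 of the group's range was found in 1 of them, and chance gives about 1 in 20 groups. This was Young 5, with a choroid plexus marker mean of 8.55 log2; the nearest array of its group had 6.76. No array of Gpr17, Bcas1, Tcf7l2 or Gatm lay that far from its group. Without Young 5 the differences were -0.21 for Gpr17, 0.44 for Bcas1, 0.41 for Gatm and -0.28 for Tcf7l2.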

How the results depend on the processing

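The differences of the 4 members kept their direction under every alternative run. Leaving out single arrays gave -0.23 to -0.17 for Gpr17, 0.44 to 0.50 for Bcas1, 0.38 to 0.43 for Gatm and -0.28 to -0.10 for Tcf7l2. Subtracting the mature myelin mean, chosen after seeing the data, moved Gpr17 to -0.29, Gatm to 0.33 and Bcas1 to 0.39. The shift is the same for every gene. It is more than the SD within groups, pooled over both ages, of Gpr17 and Gatm (0.064 and 0.068 log2), and less than that of Bcas1 (0.084).

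The count of all genes higher in Old was 37, and 22 without Young 3 and Young 5, 92 with median centring, 546 with quantile normalization, 68 in the fit restricted to varying genes and 25 to 37 without single arrays. The count of genes lower was 6, and 2, 19273, 7633 and 31 under the first 4 of these settings, 10 with a trended robust prior and 4 to 9 without single arrays. Centring and quantile normalization move collapsed genes by more than their own SD, since array medians were on average 0.00245 log2 higher in Old than in Young, so 19118 and 8025 of these calls were collapsed genes. Among lineage genes the counts higher and lower were 1 and 0. They were 7 and 76 with median centring, 4 and 43 with quantile normalization, 3 and 2 in the restricted fit, and 0 and 0 without Young 3 and Young 5; single arrays left out gave 0 to 1 higher and 0 lower. Among Wnt, creatine and GPR17-related genes 0 passed, except 47 lower with median centring and 29 lower with quantile normalization, all of them genes that did not vary. The mean of probe sets, array weights and leaving out the dimmest 33.3% of genes kept all counts within 1.5 times.

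With the replicate number of the titles as a block, 10 genes were higher and 1 lower, and 0 lineage genes were higher (Apod, adjusted p = 0.0508). The block left each member's difference as it was and gave Tcf7l2 an SE of 0.076, against 0.14 without it. Same-numbered arrays correlated from -0.22 to 0.28 (replicate 5) in their deviations over the varying genes. Of the 5 Young arrays 1 correlated best with its own number. The labels do not say whether same-numbered arrays were handled together, and these few correlations cannot settle it.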
